A study of Mus musculus with 10 samples.

Results

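Splicing factors and SR protein kinases of the mouse lung are described here, as a module of 43 genes chosen by name: the CLK kinases and Prpf4b, SR and SR-like proteins, LUC7-like proteins, RNA-binding proteins of the RBM family, hnRNPs, DEAD-box helicases and core spliceosome subunits. The genes were chosen with earlier results of these data known. A probe set belonged to the module if the platform annotation gave it a single gene symbol and that symbol was one of the 43. This found 169 of the 45101 probe sets on the array, for 41 of the 43 genes, out of 18194 genes that a probe set named in this way. Of these, 141 probe sets, again of 41 genes, had values high enough to be tested. Rbm3, a cold-inducible RNA-binding protein, was named only by 2 probe sets that carry several symbols, and no probe set on the list used here named Srsf7, an SR protein, so neither gene has a value below.

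The data are Affymetrix oligonucleotide arrays of whole lung from 10 adult female mice of the inbred laboratory strain C57BL/6, with 1 array for each animal. Arsenic was given to 5 mice at 50 ppm in drinking water for 12 weeks from 8 weeks of age, and 5 control mice of the same sex, strain and age drank deionized water at 0 ppm. The compound is called arsenate in the description of the series and arsenite in the treatment fields of the samples, so the exposed group is called arsenic here.

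An SR protein carries a stretch of alternating arginine and serine residues, through which it recruits the spliceosome to an exon. Kinases of the CLK and SRPK families phosphorylate these serines and so set where the SR proteins lie in the nucleus and which exons they include. Many genes of this machinery also splice their own transcripts into forms with an extra exon or a retained intron that are not translated into full-length protein, so probe sets of the same gene can read different forms.

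Every value is a log2 level as deposited, and every difference is the mean of the arsenic lungs minus that of the control lungs on that log2 scale. Levels of different probe sets depend on the probes and are not set against each other. Testing was limited to probe sets that read above 4.20, the median over all values, on 5 or more arrays. The 22495 probe sets that met this were fitted together with limma, and an adjusted p under 0.05 after the Benjamini-Hochberg method over all of them was the threshold. The 28 module probe sets left out had means over all 10 arrays of at most 4.12. In whole lung, fewer cells of a type and less RNA per cell cannot be told apart.

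In arsenic-exposed lungs Rsrp1 fell, and it was the only module gene past the threshold. All 3 of its probe sets were past it, against a background of 0.178% of all tested probe sets called lower. No module probe set was past it in the higher direction, where 0.262% of all tested probe sets were called. Of all tested module probe sets, those of Rsrp1 included, 116 of 141, or 82.3%, had the lower mean in the arsenic lungs, with a median difference of -0.26, whereas 44.7% of all tested probe sets were lower and their median difference was 0.03. At an unadjusted p under 0.05, 45 module probe sets of 21 genes were lower (31.9%, against 8.79% of all tested probe sets) and 2 were higher (1.42%, against 8.4% of all). Both of the higher ones belong to Luc7l. The count of 45 depended on single animals and was 25 without arsenic animal 2, 27 without arsenic animal 5, 28 without control animal 1 and 27 without control animal 3. In 6 module probe sets every arsenic lung lay below every control lung (4.26%, against 1.68% of all tested probe sets), and in 1 every arsenic lung lay above (2.18% of all tested probe sets). By gene, 24 members had only lower tested probe sets, 6 had only higher ones and 11 had both. Genes with many probe sets weigh more in the counts above. With 1 probe set per gene, that of the highest mean, 30 of 41 were lower and the median difference was -0.11, against 0.06 for all genes. Of these 41, 9 were lower at an unadjusted p under 0.05, against 5.13% of all genes. Module probe sets are not independent of each other, since 67 of the 169 share their source sequence with another. The members were also chosen with earlier results of these data known, so the shares describe these genes and do not test them as a set.

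**Figure D1:**
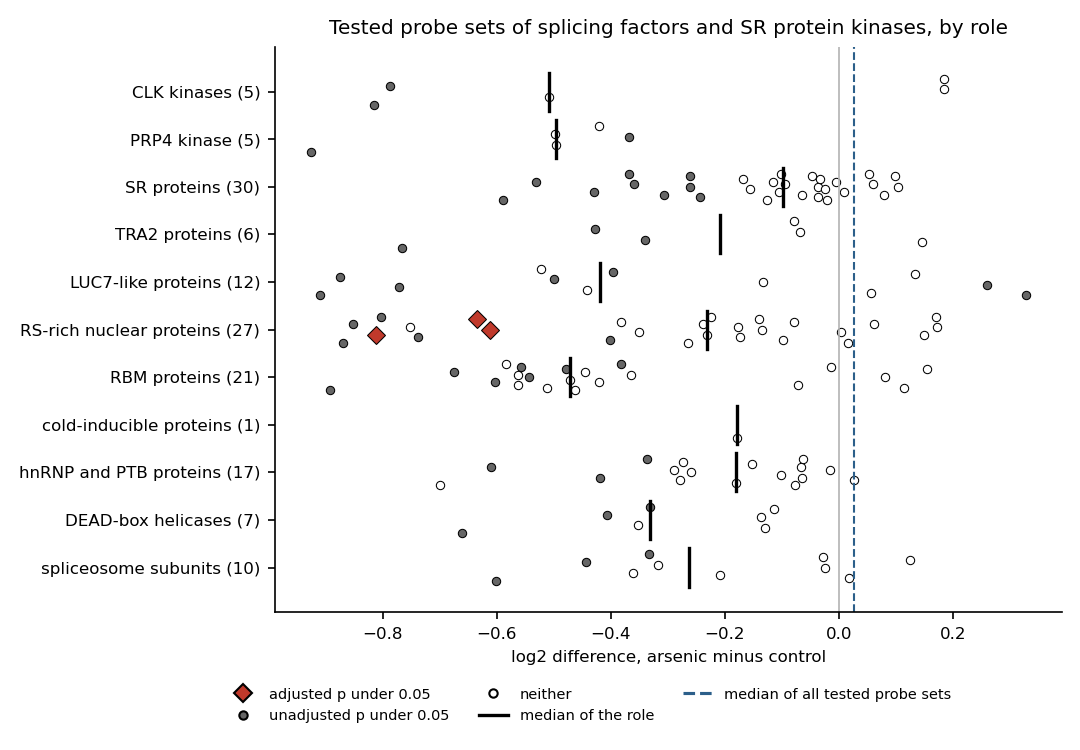
Log2 difference, arsenic minus control, of the 141 tested module probe sets, with a row for each role and the number of probe sets in brackets. Red diamonds have an adjusted p under 0.05, grey circles an unadjusted p under 0.05, and open circles neither; black bars are the median of each role and the dashed line is the median of all 22495 tested probe sets. Only the 3 Rsrp1 probe sets are red, and the median of every role lies left of the dashed line.

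The lower level of the module was not uniform among the animals, and it went with the median of all values on the array. The mean of the 141 module probe sets was 9.20, 8.80, 8.93, 9.25 and 8.96 in arsenic animals 1 to 5, against 9.38, 9.18, 9.48, 9.39 and 9.10 in control animals 1 to 5. Arsenic animals 1 and 4 lay above control animals 2 and 5, so the groups overlap. The median of all values on the array was 4.21, 4.11, 4.15, 4.23 and 4.14 in the arsenic lungs, against 4.26, 4.19, 4.24, 4.26 and 4.21 in the control lungs. The arrays with low medians were those with low module levels, in both groups: arsenic animals 2, 3 and 5 and, among the controls, animals 2 and 5. With the array median as a covariate, an alternative chosen after seeing the data, 69 of the 141 probe sets had a negative difference, the module's median difference was 0.0048, and 0 probe sets were past the threshold. At an unadjusted p under 0.05, 3 of the 141 were then lower, against 3.35% of all tested probe sets, and 4 were higher. The same covariate moved the difference of Clk1 to -0.30, of Clk4 1427663_a_at to -0.36, of Luc7l3 1451485_at to -0.41, of Pnisr 1453186_at to -0.31 and of Rbm6 1440223_at to -0.26. It left Srsf6 1416721_s_at, Srsf11 1427269_at, Ddx5 1423645_a_at, Prpf38b 1452869_at and Hnrnpa2b1 1433830_at between -0.23 and -0.15, Prpf4b 1425497_a_at at -0.17 and Luc7l2 1445717_at at -0.04, whereas Luc7l 1455261_at was at 0.25 and Rbm39 1438420_at at 0.58. Since the array median was itself lower in most arsenic lungs, its part and that of arsenic cannot be told apart. Subtracting each array's median instead left 104 of 141 lower with a median of -0.20, against 0.09 for all probe sets. After quantile normalization 117 of 141 were lower with a median of -0.27, against 0.04 for all probe sets. Over the 22495 tested probe sets alone, the median of each array ran from 8.13 to 8.17 in the arsenic lungs and from 8.13 to 8.17 in the control lungs.

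**Figure D2:**
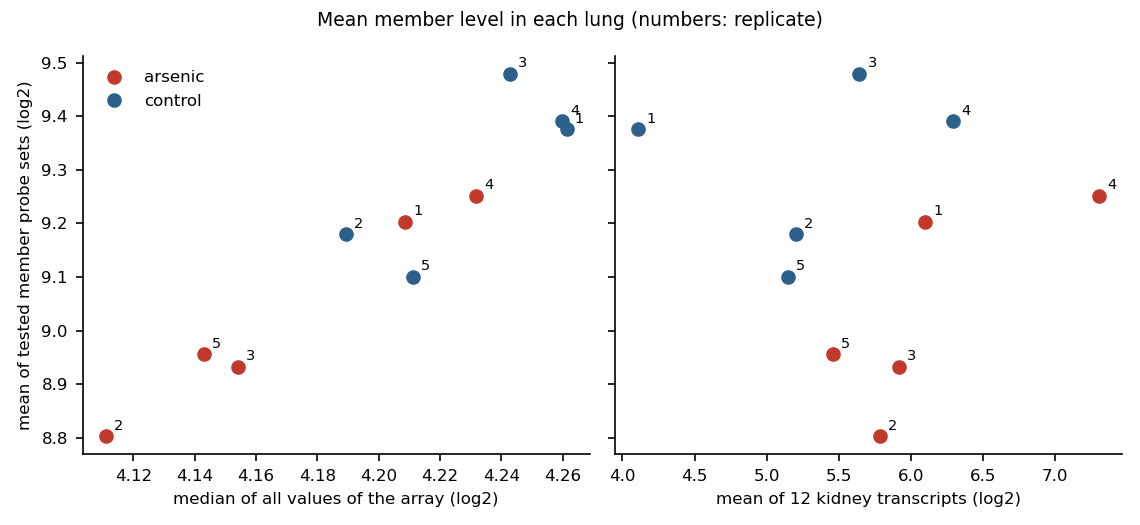
Mean log2 level of the 141 tested module probe sets in each lung against the median of all values of its array (left) and against the mean log2 level of 12 kidney transcripts (right), with red points for arsenic, blue points for control and the replicate number beside each point. The module level was lowest in arsenic animal 2 (8.80), which also had the lowest array median (4.11).

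Markers of other tissues were read beside these levels. All 12 listed kidney transcripts were measured, 7 of them above the filter, and their mean was 6.10, 5.78, 5.92, 7.30 and 5.46 in the arsenic lungs, against 4.11, 5.20, 5.64, 6.29 and 5.15 in the control lungs. Arsenic animal 4 was highest and control animal 1 lowest, and Kap, an androgen-regulated kidney transcript, ranged over the arrays in the same order at its ends, with 13.40 in arsenic animal 4 and 2.26 in control animal 1. Adjusted for the kidney level, the median difference of the module was -0.34 and 118 of 141 probe sets were lower. Control animal 2 had the highest mean of the neutrophil markers, 11.31, and without it and arsenic animal 4 the module's median difference was -0.33, with 120 lower and 0 past the threshold. The lung identity of the samples was clear from Sftpc, the surfactant protein C gene of alveolar type 2 cells, at 16.03 ± 0.05 in arsenic lungs and 16.08 ± 0.08 in control lungs, and from Scgb1a1, the club cell secretoglobin, at 16.26 ± 0.05 in arsenic lungs and 16.27 ± 0.05 in control lungs (SD, n = 5 each). In the 13 marker lists of lung, blood, kidney and adjoining tissues, each gene was read by its probe set of the highest mean. None of these probe sets that lay above the filter was past the threshold. The 3′ minus 5′ difference of Actb, a measure of RNA integrity, was 0.50 to 0.70 in arsenic lungs and 0.58 to 0.65 in control lungs. The part of these values in the module's differences was not tested beyond the covariates given.

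Rsrp1, arginine/serine-rich protein 1, encodes a small protein rich in arginine and serine whose function is little characterised. Its probe set 1448538_a_at read 10.48, 10.45, 9.95, 10.27 and 10.45 in the arsenic lungs, against 10.92, 11.10, 11.20, 11.11 and 11.32 in the control lungs. Probe set 1435357_at read 9.01, 8.81, 8.71, 8.91 and 8.70 in the arsenic lungs, against 9.32, 9.43, 9.39, 9.49 and 9.70 in the control lungs. Probe set 1417001_a_at read 11.94, 11.87, 11.48, 11.96 and 11.79 in the arsenic lungs, against 12.30, 12.31, 12.60, 12.43 and 12.47 in the control lungs. On each of the 3, all 5 arsenic lungs lay below all 5 control lungs, and arsenic animal 3 was lowest or next to lowest. With limma, the difference came to -0.81 ± 0.12 (SE) at an adjusted p of 0.0246 for 1448538_a_at, a level 1.76-fold lower. The differences of 1435357_at and 1417001_a_at were -0.64 and -0.61, with limma adjusted p-values of 0.0261 and 0.0440. Probe sets 1448538_a_at and 1417001_a_at were designed from the same source sequence, so they are not separate evidence, whereas 1435357_at has a sequence of its own.

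The fall of Rsrp1 kept its size when animals were left out, between -0.87 and -0.53 over the 3 probe sets, but its call depended on which animal was left out. All 3 probe sets stayed past the threshold without arsenic animal 4, and 2 did without arsenic animal 1 or control animal 5. No Rsrp1 probe set stayed past the threshold without arsenic animal 2 (lowest limma adjusted p 0.0531) or 5 (0.0581), or without control animal 1 (0.0554), 2 (0.0562), 3 (0.0783) or 4 (0.0501), and 1 probe set stayed without arsenic animal 3. With the array median as a covariate the differences were -0.86, -0.59 and -0.52, and with the kidney level -0.83, -0.70 and -0.69, none past the threshold (lowest adjusted p 0.216 and 0.0701).

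**Figure D3:**
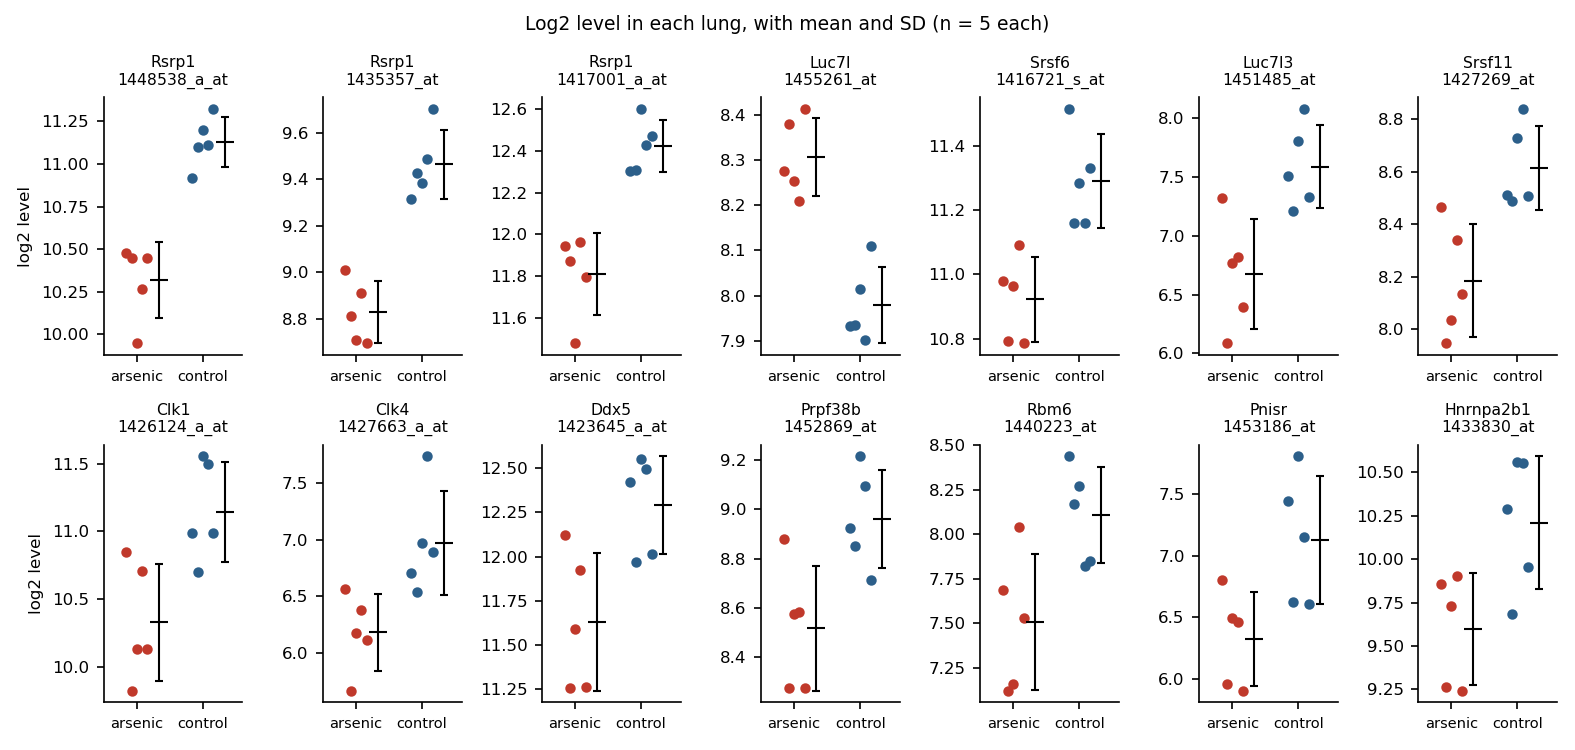
Log2 level of 14 probe sets in each lung, with arsenic (red) left of control (blue) in every panel; bars show the mean and SD of the 5 animals. In the 3 Rsrp1 panels, the Srsf6 panel and the Srsf11 panel all arsenic points lie below all control points, in the Luc7l panel they lie above, and in the other 8 panels the groups overlap.

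Promoters of Rsrp1, of the SR protein gene Srsf6 and of the LUC7-like gene Luc7l3 are shown because these 3 had the smallest p-values among the lower members with a promoter window in the RefSeq table (GRCm38.p6). Each runs from 250 bases before to 50 bases after the gene's start, on the gene's strand, 5′ to 3′. Capitals mark matches, on either strand, to the CCAAT box (CCAAT), the GC box (GGGCGG) or the core of the antioxidant response element (TGACNNNGC), the element bound by the oxidant-responsive factor NRF2.
Rsrp1, chr4:134923375-134923674, plus strand: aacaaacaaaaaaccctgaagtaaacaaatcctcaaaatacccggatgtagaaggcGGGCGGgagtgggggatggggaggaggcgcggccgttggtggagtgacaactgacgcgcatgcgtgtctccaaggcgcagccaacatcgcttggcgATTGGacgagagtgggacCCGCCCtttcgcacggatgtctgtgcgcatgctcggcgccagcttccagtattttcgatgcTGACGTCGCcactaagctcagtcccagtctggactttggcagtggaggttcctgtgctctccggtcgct
Srsf6, chr2:162931258-162931557, plus strand: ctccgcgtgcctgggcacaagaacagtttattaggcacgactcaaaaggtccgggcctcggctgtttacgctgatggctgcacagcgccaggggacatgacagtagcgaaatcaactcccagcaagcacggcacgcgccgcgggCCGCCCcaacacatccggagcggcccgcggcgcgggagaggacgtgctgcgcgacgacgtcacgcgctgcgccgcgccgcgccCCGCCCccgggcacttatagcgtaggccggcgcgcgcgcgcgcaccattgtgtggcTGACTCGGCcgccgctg
Luc7l3, chr11:94321914-94322213, minus strand: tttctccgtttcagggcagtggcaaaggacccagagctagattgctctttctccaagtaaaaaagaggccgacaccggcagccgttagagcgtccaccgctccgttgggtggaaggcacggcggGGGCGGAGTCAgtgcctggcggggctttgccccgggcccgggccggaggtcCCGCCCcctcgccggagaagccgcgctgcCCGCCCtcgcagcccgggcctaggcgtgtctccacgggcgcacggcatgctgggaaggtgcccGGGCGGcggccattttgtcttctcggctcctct
In the Luc7l3 window the match to the antioxidant element overlaps the first GC box.

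All 3 windows hold the GC box and the antioxidant core, and Rsrp1 also has a CCAAT box at position -98 from its start. Of the module's genes, 39 had 53 windows in the table, and Clk1, Luc7l, Pnisr and Rbm3 had none listed. The GC box was found in 62.3% of the module's windows and in 35.7% of all 32851 windows of that length. The antioxidant core was found in 22.6% of the module's windows against 12.4% of all, the ETS motif (CCGGAAG) in 22.6% against 8.86%, and the CCAAT box in 45.3% against 37.4%. Each of these motifs was thus more frequent in the module's windows than in all windows. The glucocorticoid response element core (ACANNNTGT) was found in 3.77% against 6.85%, the heat-shock element core (GAANNTTC) in 9.43% against 7.86%, and the TATA box (TATAAA) in 9.43% against 13.6%. Motifs for the cAMP response element (TGACGTCA), the E-box (CACGTG) and YY1 (AAGATGGCG) were found in 3.77%, 5.66% and 3.77% of the module's windows, against 1.79%, 7.15% and 1.4% of all. Base composition differs between the sets, with a median of 62.7% G or C in the module's windows and 52.7% in all, and a match describes letters, not binding.

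Signs differed among the kinases of SR proteins. Clk1, a dual-specificity kinase that phosphorylates SR proteins and is itself made from a transcript with retained introns, has 1 probe set, which read 10.85, 9.83, 10.14, 10.71 and 10.13 in the arsenic lungs, against 10.99, 10.70, 11.55, 11.50 and 10.98 in the control lungs. Arsenic animals 1 and 4 reached into the control range, and the other 3 lay below it. This is a difference of -0.82 (SE 0.23, limma adjusted p 0.152). Clk4, the closest relative of Clk1, has 2 probe sets, and 1427663_a_at read 6.57, 5.67, 6.18, 6.38 and 6.12 in the arsenic lungs, against 6.71, 6.54, 6.97, 7.73 and 6.89 in the control lungs. Only arsenic animal 1 lay inside the control range, at its low end. The difference was -0.79 (SE 0.23, limma adjusted p 0.161), and the other probe set of Clk4 differed by -0.51.

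Clk2 and Clk3, with 1 probe set each, lay the other way. Clk2, a kinase that also takes part in insulin signalling of the liver, was at 9.72 ± 0.17 in arsenic lungs and 9.54 ± 0.15 in control lungs (SD, n = 5 each), a difference of 0.18 (limma adjusted p 0.376). Clk3 was at 9.15 ± 0.17 in arsenic lungs and 8.97 ± 0.09 in control lungs, a difference of 0.19 (adjusted p 0.334). Whether Clk1 and Clk4 differ from Clk2 and Clk3 in their response was not tested. Prpf4b, a kinase bound to the tri-snRNP of the spliceosome, had 5 tested probe sets of 6, all lower, between -0.93 and -0.37. Its probe set with the highest mean was at 8.76 ± 0.45 in arsenic lungs and 9.18 ± 0.42 in control lungs. None of the kinase probe sets was past the threshold, with a lowest adjusted p of 0.152.

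Among the SR proteins, 24 of 30 tested probe sets of 8 genes were lower, with a median difference of -0.10, and 9 of these (30.0%, against 8.79% of all tested probe sets) had an unadjusted p under 0.05. Those 9 came from Srsf1, Srsf5, Srsf6 and Srsf11. Srsf6, an SR protein that binds exonic enhancers, had 4 lower probe sets. Its probe set 1416721_s_at read 10.98, 10.79, 10.96, 11.09 and 10.78 in the arsenic lungs, against 11.51, 11.16, 11.29, 11.16 and 11.33 in the control lungs. Every arsenic lung lay below every control lung, by a narrow margin. With limma, the difference came to -0.37 ± 0.09 (SE) at an adjusted p of 0.130. The ending _s_at marks a set whose probes can match transcripts of more than 1 gene. The Srsf6 probe set with the highest mean, 1448454_at, was at 11.46 ± 0.04 in arsenic lungs and 11.59 ± 0.13 in control lungs, a difference of -0.13.

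Srsf11, an SR-related protein that contacts the factors of the 3′ splice site, had 4 tested probe sets, and all 4 were lower with an unadjusted p under 0.05, between -0.59 and -0.24. Its probe set 1427269_at read 8.46, 7.95, 8.03, 8.34 and 8.14 in the arsenic lungs, against 8.51, 8.49, 8.73, 8.84 and 8.51 in the control lungs. The groups did not overlap, although arsenic animal 1 lay just under the lowest control. This is a difference of -0.43 (SE 0.12, limma adjusted p 0.149). The probe set of Srsf11 with the highest mean was at 10.66 ± 0.18 in arsenic lungs and 11.02 ± 0.19 in control lungs, a difference of -0.36. Srsf5, an SR protein with 1 probe set, was at 11.64 ± 0.19 in arsenic lungs and 11.95 ± 0.18 in control lungs, a difference of -0.31 (limma adjusted p 0.230).

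Of the other SR proteins, Srsf1 had its probe sets on the lower side and the rest had differences of both signs or a higher one. Srsf1, the prototype of the family, had 6 lower probe sets of 6 tested and 7 in all, with 12.59 ± 0.09 in arsenic lungs and 12.70 ± 0.20 in control lungs for that of the highest mean and differences between -0.53 and -0.09, of which the lowest, on 1428100_at, had an unadjusted p under 0.05 (limma adjusted p 0.262). Srsf2, which binds exonic enhancers and marks nuclear speckles, was at 12.03 ± 0.08 in arsenic lungs and 12.06 ± 0.10 in control lungs, with 3 of 4 lower. Its probe set with the lowest mean, 1427816_at, had no overlap between the groups, at a difference of only -0.10. Srsf3, the smallest SR protein, was at 12.87 ± 0.10 in arsenic lungs and 12.82 ± 0.16 in control lungs, with 4 of 6 lower and a span of -0.06 to 0.05. Srsf10, which represses splicing when it is dephosphorylated, was at 9.80 ± 0.21 in arsenic lungs and 9.81 ± 0.33 in control lungs, with 2 of 4 lower. Srsf4, with 1 probe set, was at 10.22 ± 0.10 in arsenic lungs and 10.12 ± 0.12 in control lungs, a difference of 0.10.

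The TRA2 proteins, SR-like activators of exon inclusion, had 5 lower probe sets of 6 tested and a median of -0.21. Tra2a had 4 tested probe sets of 6. The one with the highest mean, 1454725_at, was at 11.33 ± 0.15 in arsenic lungs and 11.18 ± 0.30 in control lungs and thus 0.15 higher in arsenic lungs, whereas the others lay at -0.34, -0.43 and -0.77. On 1442886_at, the lowest of these, the lungs read 6.92, 6.49, 5.90, 7.30 and 6.85 in the arsenic lungs, against 7.72, 7.81, 7.72, 7.11 and 6.94 in the control lungs. Arsenic animals 1, 4 and 5 fell among the controls or just under them. Tra2b, its paralogue, had 2 tested probe sets of 5, at -0.08 and -0.07, and was at 11.94 ± 0.12 in arsenic lungs and 12.01 ± 0.20 in control lungs.

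LUC7-like proteins, relatives of a yeast U1 snRNP subunit that takes part in choosing the 5′ splice site, lay on both sides of 0. Luc7l had 3 tested probe sets of 6, all higher in arsenic lungs. Its probe set 1455261_at read 8.28, 8.38, 8.25, 8.21 and 8.41 in the arsenic lungs, against 7.93, 7.93, 8.02, 7.90 and 8.11 in the control lungs. Every arsenic lung lay above every control lung, the only module probe set with that pattern. The difference was 0.33 (SE 0.07, limma adjusted p 0.0952), so it passed at a threshold of 0.1 and not at 0.05.

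Luc7l3 had 2 tested probe sets of 3, both lower. On 1451485_at the lungs read 7.32, 6.08, 6.77, 6.82 and 6.40 in the arsenic lungs, against 7.51, 7.21, 7.81, 8.08 and 7.33 in the control lungs. Only arsenic animal 1 reached the control range. With limma, the difference came to -0.91 ± 0.23 (SE) at an adjusted p of 0.132, and the other, with 8.43 ± 0.40 in arsenic lungs and 9.20 ± 0.43 in control lungs, differed by -0.77. Luc7l2 had 7 tested probe sets of 8, 6 of them lower. The one with the highest mean, 1436766_at, was at 11.59 ± 0.62 in arsenic lungs and 12.03 ± 0.33 in control lungs. On 1445717_at, its lowest, the lungs read 6.31, 4.09, 4.79, 5.94 and 5.55 in the arsenic lungs, against 6.91, 5.90, 6.02, 6.11 and 6.11 in the control lungs, with arsenic animals 2 and 3 far below the rest, for a difference of -0.88. On 1427087_at, its only higher one, the difference was 0.13. Whether Luc7l responds differently from Luc7l2 and Luc7l3 was not tested.

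Among the other proteins rich in arginine and serine, 21 of 27 tested probe sets of 6 genes were lower, Rsrp1 included. Pnisr, a nuclear SR protein that binds pinin, had 7 lower probe sets of 7. On 1453186_at the lungs read 6.80, 5.96, 6.49, 6.46 and 5.91 in the arsenic lungs, against 7.44, 6.63, 7.81, 7.15 and 6.61 in the control lungs. Arsenic animal 1 lay within the control range, and the other 4 arsenic lungs lay below it. This is a difference of -0.80 (SE 0.26, limma adjusted p 0.184). Its probe set with the highest mean was at 7.88 ± 0.58 in arsenic lungs and 8.73 ± 0.46 in control lungs, and 2 dimmer probe sets differed by only -0.18 and -0.14. Srrm1, a splicing coactivator that bridges SR proteins, had 2 lower and 3 higher probe sets of 5 tested and 7 in all, between -0.40 and 0.17. Its probe set with the highest mean stood at 10.83 ± 0.05 in arsenic lungs and 10.82 ± 0.06 in control lungs.

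Srrm2, a scaffold of nuclear speckles, had 3 lower probe sets of 3, with 10.89 ± 0.47 in arsenic lungs and 11.06 ± 0.16 in control lungs on that of the highest mean. Son, the other speckle scaffold, had 6 lower of 7, with 12.78 ± 0.24 in arsenic lungs and 13.04 ± 0.18 in control lungs, a difference of -0.26 (limma adjusted p 0.322). Acin1, acinus, which accompanies the exon junction complex, had 2 higher probe sets of 2, with 9.35 ± 0.10 in arsenic lungs and 9.20 ± 0.15 in control lungs, a difference of 0.15.

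The RBM proteins had the lowest median of the roles with over 10 probe sets, -0.47, with 18 of 21 lower. Rbm39, a coactivator related to the splicing factor U2AF, had 10 tested probe sets of 12, the most of any member. The one with the highest mean, 1438420_at, read 11.00, 10.33, 9.86, 11.13 and 10.07 in the arsenic lungs, against 10.53, 10.39, 10.35, 10.20 and 10.14 in the control lungs. Arsenic animals 1 and 4 were above every control and arsenic animals 3 and 5 below, which left a difference of 0.15 with a 95% interval of -0.36 to 0.67. The other 9 were all lower, between -0.89 and -0.37. The lowest, 1439316_at, read 8.36, 6.36, 7.93, 8.61 and 7.53 in the arsenic lungs, against 9.27, 8.35, 9.13, 8.30 and 8.21 in the control lungs. Arsenic animal 2 was lowest by over 1 log2 unit, and 1 and 4 fell within the controls.

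Rbm6, an RNA-binding splicing regulator, had 3 lower probe sets of 3. On 1440223_at the lungs read 7.69, 7.12, 7.16, 8.04 and 7.53 in the arsenic lungs, against 8.44, 8.17, 8.27, 7.82 and 7.85 in the control lungs. Arsenic animal 4 lay above 2 controls, and the other 4 arsenic lungs lay below all of them. The difference was -0.60 (SE 0.19, limma adjusted p 0.180). On the probe set with the highest mean Rbm6 was at 8.23 ± 0.14 in arsenic lungs and 8.31 ± 0.17 in control lungs, a difference of -0.07. Rbm5, its paralogue and a regulator of the splicing of apoptosis genes, had 4 tested probe sets of 5, 2 lower and 2 higher, between -0.51 and 0.11, and was at 11.19 ± 0.04 in arsenic lungs and 11.11 ± 0.07 in control lungs on that of the highest mean. Rbm25, which binds the U1 snRNP and exonic enhancers, had 4 lower of 4 tested and 6 in all, 3 with an unadjusted p under 0.05, and was at 8.58 ± 0.35 in arsenic lungs and 9.06 ± 0.17 in control lungs, a difference of -0.48 (limma adjusted p 0.197). Cirbp, the cold-inducible RNA-binding protein, has 1 probe set and was at 9.20 ± 0.21 in arsenic lungs and 9.38 ± 0.52 in control lungs, a difference of -0.18 with a 95% interval of -0.68 to 0.32.

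The hnRNPs and Ptbp1, which mostly repress exons, had 16 lower probe sets of 17 with a median of -0.18. Hnrnpa2b1, which packages nascent transcripts, had 4 lower of 4. On 1433830_at the lungs read 9.86, 9.26, 9.73, 9.90 and 9.24 in the arsenic lungs, against 10.29, 9.69, 10.56, 10.55 and 9.96 in the control lungs. Arsenic animals 1, 3 and 4 lay above the lowest control, animal 2, and the other 2 lay below it. With limma, the difference came to -0.61 ± 0.20 (SE) at an adjusted p of 0.193. On its probe set with the highest mean it was at 12.22 ± 0.18 in arsenic lungs and 12.50 ± 0.24 in control lungs. Hnrnpu, a nuclear scaffold protein, had 4 lower of 4 tested and 5 in all, between -0.70 and -0.27. The lowest, 1434391_at, lay close to the filter, with means of 4.14 in arsenic lungs and 4.84 in control lungs. The others lay between -0.42 and -0.27. On its probe set with the highest mean Hnrnpu was at 11.22 ± 0.27 in arsenic lungs and 11.49 ± 0.29 in control lungs.

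Hnrnpk, which binds runs of cytosine, had 4 lower of 4, none beyond -0.18, and was at 13.91 ± 0.27 in arsenic lungs and 14.07 ± 0.17 in control lungs. Hnrnpa1, the classical exon repressor, had 2 lower of 2 tested and 3 in all, and was at 9.90 ± 0.04 in arsenic lungs and 9.96 ± 0.14 in control lungs. Hnrnpl, which binds CA repeats, had 1 tested probe set of 2 and was at 8.53 ± 0.29 in arsenic lungs and 8.63 ± 0.22 in control lungs. Ptbp1, the polypyrimidine-tract repressor of exons, had 2 tested probe sets of 3, at -0.06 and 0.03, and was at 12.13 ± 0.08 in arsenic lungs and 12.19 ± 0.12 in control lungs. No tested probe set of these 4 genes had an unadjusted p under 0.05.

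Ddx5 and Ddx17, paired RNA helicases that remodel splice-site complexes, had 7 lower probe sets of 7 with a median of -0.33. Ddx5 had 5 of them, from 6 on the array, and 1423645_a_at read 12.12, 11.25, 11.59, 11.92 and 11.26 in the arsenic lungs, against 12.42, 11.97, 12.55, 12.49 and 12.02 in the control lungs. Arsenic animal 1 lay above 2 controls, and the other 4 arsenic lungs lay below all of them. This is a difference of -0.66 (SE 0.19, limma adjusted p 0.163). On its probe set with the highest mean Ddx5 was at 13.36 ± 0.29 in arsenic lungs and 13.77 ± 0.28 in control lungs. Ddx17 had 2 of 3 tested, at -0.13 and -0.11, with 12.87 ± 0.16 in arsenic lungs and 12.99 ± 0.20 in control lungs.

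Of the spliceosome subunits, 8 of 10 tested probe sets were lower. Prpf38b, a relative of the yeast spliceosome activation factor Prp38, had 3 lower of 3 tested and 4 in all. On 1452869_at the lungs read 8.88, 8.27, 8.57, 8.58 and 8.27 in the arsenic lungs, against 8.92, 8.85, 9.22, 9.10 and 8.71 in the control lungs. Arsenic animal 1 lay above 2 controls, and the other 4 arsenic lungs lay below all 5. The difference was -0.44 (SE 0.14, limma adjusted p 0.176). Sf3b1, the subunit of the U2 snRNP that holds the branch point, had 4 lower of 4, between -0.60 and -0.21, and was at 10.80 ± 0.42 in arsenic lungs and 11.16 ± 0.21 in control lungs. Snrnp70, a U1 snRNP protein that SR proteins contact, had 2 tested probe sets of 4, at -0.03 and 0.02, and was at 9.09 ± 0.11 in arsenic lungs and 9.12 ± 0.14 in control lungs. U2af1, which reads the AG at the 3′ splice site, had 1 probe set, higher by 0.12, and was at 10.40 ± 0.20 in arsenic lungs and 10.28 ± 0.23 in control lungs.

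In 9 members the tested probe sets lay over 0.5 log2 apart, namely Prpf4b, Tra2a, Luc7l2, Srrm1, Pnisr, Rbm5, Rbm6, Rbm39 and Ddx5. To ask whether probe sets of a gene differ from each other in their response, the probe set of a gene with the highest mean was subtracted from each further one on the same array, and the 8158 such pairs on the whole array were fitted with limma. None of the module's 100 pairs, from 33 genes, was past the threshold, against 4 of all pairs, or 0.049%. Its lowest adjusted p was 0.169. At an unadjusted p under 0.05 there were 24 module pairs (24%, against 12.8% of all pairs), and in 21 of them the further probe set had the lower difference. Rbm39 gave 9 of the 24, each against the same probe set 1438420_at, and the largest of them was -1.05 for 1439316_at (adjusted p 0.239). For Tra2a the largest was -0.91, for 1442886_at (adjusted p 0.249). Pnisr 1429537_at and Ddx5 1433810_x_at, which set the upper ends of their genes' spans, lay close to the filter, with means of 4.13 in arsenic lungs and 4.27 in control lungs and of 4.46 in arsenic lungs and 4.59 in control lungs, where differences come out too small, so their distance from the other probe sets cannot be read as a differing response. Pairs of 1 gene share a probe set, so they are not independent. The files used here do not hold probe positions, so the transcript form each probe set reads was not analysed here.

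**Figure D4:**
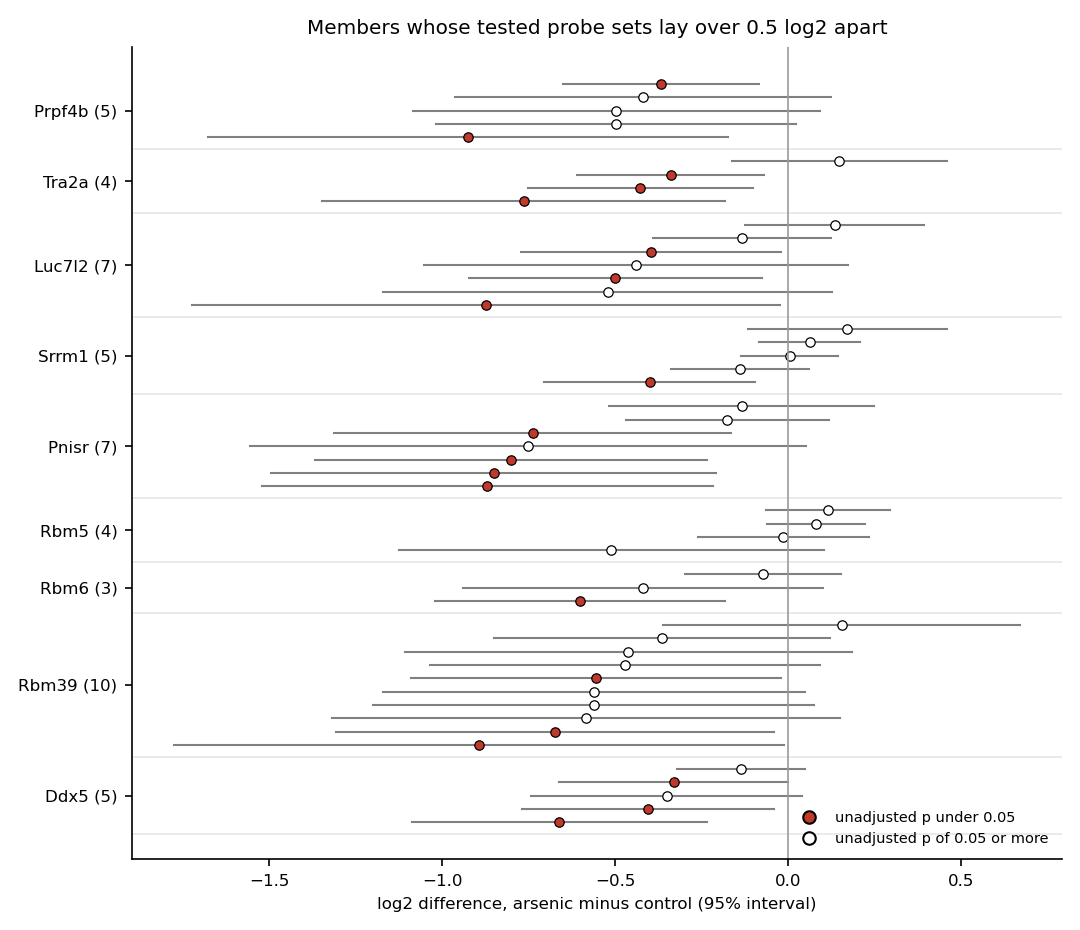
Log2 difference, arsenic minus control, with its 95% interval, for every tested probe set of the 9 members whose probe sets lay over 0.5 log2 apart. Filled points have an unadjusted p under 0.05. Probe sets of Tra2a, Luc7l2, Srrm1, Rbm5 and Rbm39 lie on both sides of 0, whereas those of Prpf4b, Pnisr, Rbm6 and Ddx5 are all below it.

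The rest of the splicing and RNA-processing machinery was read from 8 lists with 433 tested probe sets of 197 genes, and 0 of them were past the threshold. Of these, 228 were lower, with a median difference of -0.02, so the lower side held 52.7% of them against 82.3% of the module. Members and lists were both chosen with earlier results of these data known, so these shares are descriptive and no test of a difference. At an unadjusted p under 0.05, 68 were lower (15.7%, against 8.79% of all tested probe sets) and 23 higher (5.31%, against 8.4% of all).

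The lists lay on different sides of 0. Of all tested probe sets, 55.3% were higher and 44.7% lower. Each gene named from them, here and below, is given by its tested probe set with the smallest p-value. Other probe sets of that gene can differ less. The snRNP and Lsm proteins, which form the core particles on the spliceosomal RNAs, had 29 higher probe sets of 32 and a median of 0.09, with Lsm3 at 0.23 and Gemin5, part of the assembly complex, at 0.27. The U2 and tri-snRNP factors had 62 higher of 82 and a median of 0.07, with U2af1l4, a relative of U2af1, at 0.34 and the helicase Ddx46 at -0.61. Exon junction and nonsense-mediated decay factors had 11 higher of 17, with the cap-binding protein Ncbp1 at 0.20 and the endonuclease Smg6 at -0.48.

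On the other side, further SR and RS-domain proteins had 41 lower of 58 and a median of -0.22, with the cyclophilin-like Nktr at -0.69 and Rsrc2 at -0.54. Other hnRNP and paraspeckle proteins had 51 lower of 71 and a median of -0.15. Among them Hnrnpdl read 12.13, 11.70, 11.83, 12.04 and 11.88 in the arsenic lungs, against 12.43, 12.18, 12.33, 12.38 and 12.34 in the control lungs, without overlap (difference -0.42, limma adjusted p 0.101), and the RNA-binding protein Taf15 was at -1.04. Tissue splicing regulators and other RBM proteins had 43 lower of 67, with the muscleblind protein Mbnl2 at -0.99 and the intronic enhancer-binding Tia1 at -0.89. Further kinases and phosphatases of SR proteins had 30 lower of 45, with Top1, a topoisomerase that also phosphorylates SR proteins, at -0.86 and Hipk1 at -0.25.

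Factors of 3′ end processing and mRNA export were nearly balanced around 0, with 34 lower of 61 (55.7%, against 44.7% of all tested probe sets). Cstf3, a subunit of the cleavage stimulation factor, read 6.11, 5.19, 5.23, 6.47 and 5.70 in the arsenic lungs, against 7.46, 6.95, 7.47, 6.54 and 6.79 in the control lungs. The groups did not overlap, but the difference of -1.30 missed the threshold (limma adjusted p 0.0821). The poly(A)-binding protein Pabpn1 differed by -0.31. Heat-shock genes, a list kept apart because CLK1 and SR proteins respond to heat, had 28 higher of 44 (63.6%, against 55.3% of all tested probe sets) and 1 past the threshold in the lower direction (0.178% of all), a probe set of the Hsp90 cochaperone Ahsa1 that fell by 0.87 (adjusted p 0.0367).

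**Figure D5:**
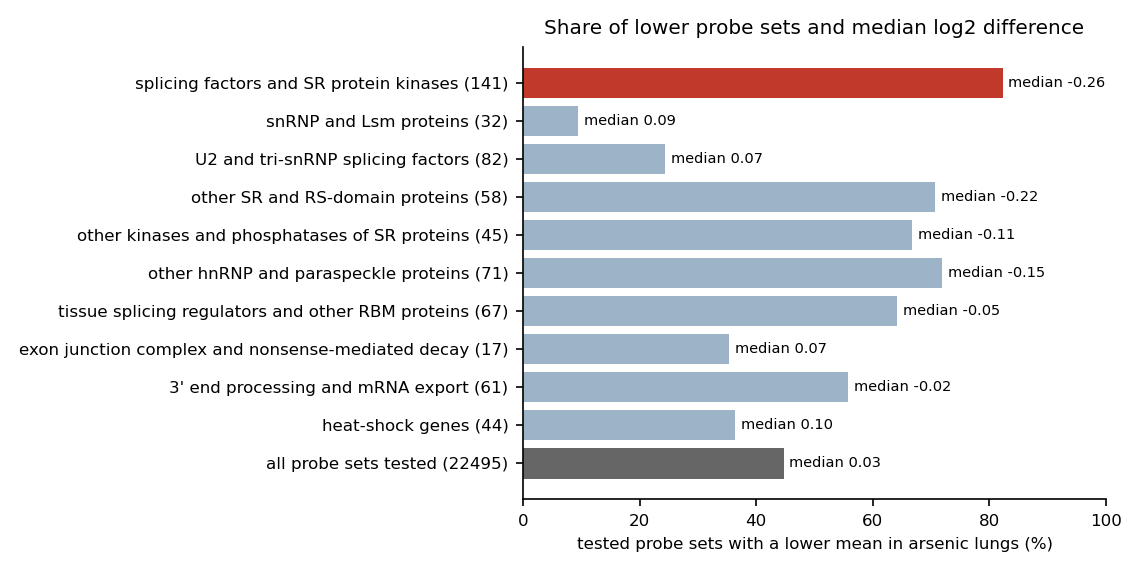
Share of tested probe sets with a lower mean in arsenic lungs, for the module (red), 9 other lists (blue) and all tested probe sets (grey), with the number of probe sets in brackets and the median log2 difference beside each bar. The module stands at 82.3% and the snRNP and Lsm proteins at 9.38%, on either side of the 44.7% of all tested probe sets.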

How the data were processed

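Total RNA of 10 lungs was labelled by the standard Affymetrix method with biotin and put on Mouse430_2 arrays, per the labels' protocols. The authors deposited a table of log2 values for 45101 probe sets, and GCRMA is named in the submitters' processing notes, with no version given. That the values are log2 was read from their range, 0.62 to 16.3. GCRMA pulls dim probe sets towards a floor, which makes their differences too small. Depth has no counterpart here, and the 5 arrays in each group limit the precision. The labels give each animal its own number, so replicates are separate animals. Directly before the animal number, the titles carry another number that goes with the group and is not explained. If that number marks a cage or batch, it and arsenic cannot be told apart.

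The platform annotation gave 1 gene symbol to 34958 probe sets, several to 932 and none to 9211. The symbols of all 169 module probe sets matched RefSeq through their Entrez identifiers. After leaving out 64 control probe sets, a model with the group as its only term was fitted in R 4.3.3 with limma 3.58.1 (lmFit, then eBayes), with the Benjamini-Hochberg adjustment over 22495 tested probe sets. Pairs of probe sets of 1 gene were fitted the same way, and both fits were run on simulated data. There a change of 0.5 log2 was called in 27 of 67 probe sets and in 41 of 67 pairs. A change of 1 was called in 54 of 67 probe sets and in 59 of 67 pairs. The simulated noise was drawn independently for each probe set or pair, whereas those of the module are not independent. Figures were drawn with matplotlib 3.10.9.

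The members, the other gene lists and the rule for named genes were chosen with earlier results of these data known. Each member was named with the tested probe set of the highest mean. Values in every animal were given for members past the threshold and for the 12 members with the smallest p, and from each list the genes past the threshold or else the 2 with the smallest p. Values of other probe sets were given to show the span of a gene. Promoters came from RefSeq (GRCm38.p6). Alternatives were other filters, normalizations, variance models, thresholds and covariates, a replicate block, 1 probe set per gene and leaving out animals. Scanner files were not used here.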

Additional observations from a re-analysis of the deposited data

Results flagged for a closer look

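In 2 of the 60 groups of 5 lungs checked, over 30 named probe sets, a single animal stood apart from the others of its group by a gap larger than Dixon's critical value of 0.71 of the group's range. Chance alone flags about 1 in 20 such groups. On Luc7l2 probe set 1445717_at, control animal 1 read 6.91, and the gap to the next control was 0.786 of the range. On Rbm6 probe set 1452466_a_at, arsenic animal 4 read 8.47, with a gap of 0.769 of the range. That animal also had the highest kidney transcript level of all 10, 7.30, and control animal 1 had the lowest, 4.11. The part of the kidney level in these readings was not tested.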

How the results depend on the processing

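The module's median difference was negative, with 73.2% to 85.1% of its probe sets lower, under every alternative but the array median as a covariate (0.0048, 69 of 141), which was chosen after seeing the data. Leaving out each animal in turn gave module medians of -0.31 to -0.21. Past the threshold were 0 to 3 module probe sets, against 3 with all animals, and 12 to 97 on the whole array, against 99. At an unadjusted p under 0.05, 25 to 62 module probe sets were lower, against 45. Pairs of probe sets of 1 gene past the threshold came to 0 to 14, against 4. Genes of the other splicing lists past it came to 0 to 2, against 0. The whole array had 19 calls with no filter, 54 with 1 probe set per gene, 167 with array weights, 12 with the kidney level and 175 with the Actb difference as covariates, 241 and 2 at thresholds of 0.1 and 0.01, and 0 both without arsenic animal 4 and control animal 2 and with the array median as a covariate. The module had 1 call with 1 probe set per gene, and 0 with no filter, at the threshold of 0.01, without those 2 animals, and with the kidney level or array median as a covariate. At 0.1 it gained 1 higher call, Luc7l. Pairs of probe sets came to 0 with the filter at the 75th percentile, at 0.01 and with the kidney level or array median as a covariate, and to 10 with the Actb difference, 12 without those 2 animals and 7 at 0.1. The other splicing lists had 1 gene called with array weights, with the Actb difference and at 0.1. Same-numbered animals did not deviate together (correlations -0.26 to 0.15), so the numbers do not pair them. With a replicate block the counts were 4 for the whole array, 0 for the module and 0 for pairs. The difference of Rbm39 1438420_at moved to -0.0048 with the kidney level and, when animals were left out in turn, to between -0.0092 (without arsenic animal 4) and 0.31 (without arsenic animal 3). Signs also turned with the array median as a covariate for Pnisr 1429537_at (0.15), Rbm5 1456262_at (0.0440), Rbm6 1452466_a_at (0.0729) and Rbm39 1439316_at (0.0136). The cause was not tested. Quantile normalization and the trended and robust variance model kept 3 module calls, all Rsrp1, and median centring kept 2. Signal limits what the 28 module probe sets under the filter can show.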
